A study of Homo sapiens with 4 samples.

Results

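The MYC and MAX network was examined by cap analysis of gene expression (CAGE), which counts the capped 5′ ends of transcripts, in the established human bladder cancer line UM-UC-3. The genes were chosen by name, as the rows of the deposited table with the symbols MYC, MAX, MXI1, MXD3, MXD4, MNT, MLX, MLXIP and MGA, and all 9 were found among the 13743 genes of the table. The 2 groups were cisplatin resistant UM-UC-3 cells (a subline, CR in the labels), grown in medium containing 5 µM cisplatin (CDDP), and the UM-UC-3 wild type cells, with 2 samples each. The sources used here do not give the medium of the wild type cells, so an acquired state of the subline cannot be told apart from an effect of the drug in its medium. They also do not say whether the subline is 1 clone or whether replicates are separate cultures. The p-values therefore reflect no more than the spread among these 4 samples, which may be technical. In such bulk samples, fewer cells that express a gene and less RNA per cell cannot be told apart.

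MYC, MAX and their relatives are basic helix-loop-helix leucine zipper proteins that bind DNA as pairs at the E-box, CACGTG. MAX is the common partner: MYC-MAX pairs activate genes of ribosome production, metabolism and the cell cycle, whereas MXD proteins, MXI1 and MNT paired with MAX recruit the SIN3-HDAC corepressor to the same sites. MGA pairs with MAX in the PRC1.6 repressor, and MLX is the partner of the glucose-sensing factor MLXIP (MondoA), while it can also pair with MNT and MXD4. In many carcinomas, those of the bladder among them, the amount of MYC and the balance of its antagonists are tied to proliferation.

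Promoter sequences are shown because the E-box is the site that the network itself reads. They are those of the 3 searched network genes with an E-box in a window, and that of MXI1. Of the 3, MLX and MXD4 passed the test below and MNT did not, while MXI1 passed. The deposited values are per gene, so from which annotated start the CAGE reads came was not tested. MYC was not searched. In the RefSeq promoter table (GRCh38.p14, from 250 bases before to 50 bases after each annotated start), the other 8 of the 9 genes had at least 1 window, 13 windows in all. The E-box CACGTG, which reads the same on both strands, was present in a window of 3 of these 8 genes, MLX, MXD4 and MNT. It was present in 7.26% of the 35116 windows of the table, and in at least 1 window of 13.0% of the 8973 tested genes that matched a window by symbol. The 250 bases before the start are printed 5′ to 3′ on the strand of the gene with the motif in capitals, for MLX at chr17:42566850-42567099 (plus strand), for MXD4 at chr4:2262110-2262359 (minus strand) and for MNT at chr17:2401061-2401310 (minus strand).
MLX: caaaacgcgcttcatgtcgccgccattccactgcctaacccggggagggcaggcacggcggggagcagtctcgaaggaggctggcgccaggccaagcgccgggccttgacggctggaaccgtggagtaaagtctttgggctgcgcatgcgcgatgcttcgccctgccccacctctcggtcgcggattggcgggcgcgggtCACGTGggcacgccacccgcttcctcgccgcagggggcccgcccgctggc
MXD4: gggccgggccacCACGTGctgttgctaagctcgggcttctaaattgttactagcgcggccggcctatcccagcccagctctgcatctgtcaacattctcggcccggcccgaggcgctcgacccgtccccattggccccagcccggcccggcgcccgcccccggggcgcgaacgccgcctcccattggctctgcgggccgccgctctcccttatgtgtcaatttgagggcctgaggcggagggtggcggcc
MNT: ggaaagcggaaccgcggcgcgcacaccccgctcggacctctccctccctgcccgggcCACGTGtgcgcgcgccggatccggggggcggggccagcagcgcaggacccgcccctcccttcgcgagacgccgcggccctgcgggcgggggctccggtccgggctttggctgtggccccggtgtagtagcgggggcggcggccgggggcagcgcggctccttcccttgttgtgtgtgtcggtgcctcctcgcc
Counted from the annotated start, the E-box began at position -50 in MLX, -238 in MXD4 and -193 in MNT. None of the 3 windows of MXI1 held CACGTG. The shorter motif ACGTG, the core of the hypoxia response element and also part of every CACGTG, was searched on both strands. It was found in 6 of the 8 genes, against 33.2% of the tested genes with a window and 21.4% of all windows. In MLX, MXD4 and MNT it lay only within CACGTG, and MXI1 and MGA had 3 windows each. MXI1 is known as a target of hypoxia-inducible factors, and the second of its windows held ACGTG on the opposite strand, so that CACGT stands in capitals in the 250 bases at chr10:110209981-110210230 (plus strand) below.
MXI1: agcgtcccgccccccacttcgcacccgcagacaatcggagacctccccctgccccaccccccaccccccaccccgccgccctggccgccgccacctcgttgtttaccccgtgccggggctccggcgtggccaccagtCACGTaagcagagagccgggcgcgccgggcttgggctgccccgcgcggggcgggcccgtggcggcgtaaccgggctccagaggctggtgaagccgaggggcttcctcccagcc
These matches are letters in a window and carry no measure of binding.

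By the step between the deposited values, taken as 1 read, the samples held between 17800855 and 21190043 reads in the listed genes, and the summed reads of a network gene in a group lay between 222 (MLXIP in wild type) and 3459 (MAX in resistant cells). Values are CPM, the reads of a gene scaled to a common column total over the genes listed. A log2 fold change is that of CPM + 1, resistant over wild type, and SE is its moderated standard error in limma. Of 12 urothelial markers, 3 could be tested, and KRT18 and KRT8 were lower and KRT7 higher in resistant cells, while TP63 lay under the minimum for testing. Their summed level, TP63 included, was 144.0 and 138.7 CPM in resistant samples and 407.6 and 403.1 CPM in wild type samples, and its part in the results below was not tested. Of 6 blood cell markers 0 had a value, and of 7 fibroblast and endothelial markers COL1A1 and COL3A1 together reached at most 0.7 CPM in a sample.

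Differences past the test lay at MXD-type antagonists and at MLX, while MYC and MAX did not pass. Of the 9 genes, all of which passed the minimum mean of 1 CPM, MLX rose and MXI1 and MXD4 fell in resistant cells, and 6 did not pass the test (limma, Benjamini-Hochberg adjusted p under 0.05). Among all 12587 tested genes, 55.2% passed in either direction, 33.5% as higher and 21.6% as lower, against 33.3% of the 9 network genes. Of all tested genes 4221 were higher and 2724 lower, and with quantile normalization 3518 were higher and 3415 lower. The median log2 fold change of the 9 network genes was 0.07, against 0.09 over all tested genes. The groups did not overlap in 5 of the 9 genes, where 78.5% of all tested genes had groups that did not overlap.

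**Figure D1:**
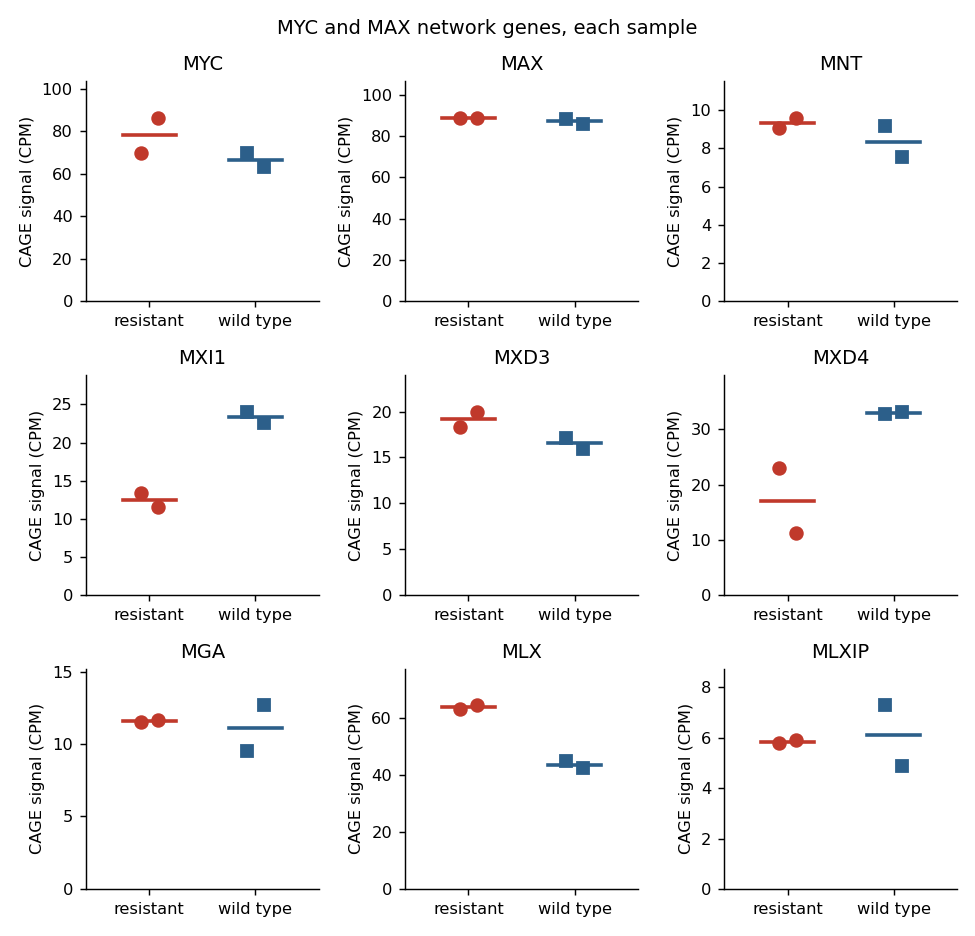
Each panel plots the CAGE signal of 1 network gene in CPM, with resistant samples (red circles) left of wild type samples (blue squares) and a bar at the mean of each group (n = 2). MLX is higher and MXI1 and MXD4 are lower in both resistant samples, and the resistant samples of MXD4 lie apart at 23.03 and 11.18 CPM.

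MYC, the oncogenic activator of the network, read 69.75 and 86.4 CPM in resistant samples, against 69.91 and 63.05 CPM in wild type samples. The groups overlapped, since resistant replicate 1 lay just below wild type replicate 1. Its mean was 78.1 ± 11.8 CPM in resistant cells and 66.5 ± 4.85 CPM in wild type cells (SD, n = 2 each), a log2 fold change of 0.22 (SE 0.11; limma, adjusted p = 0.109). Without resistant replicate 1 the log2 fold change was 0.38 and passed (limma, adjusted p = 0.0495), and without resistant replicate 2 it was 0.07 (limma, adjusted p = 0.672). The size of the difference thus moves with which resistant sample is kept.

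MAX, the shared partner without which MYC does not bind the E-box, read 88.68 and 88.76 CPM in resistant samples, against 88.22 and 85.85 CPM in wild type samples. The resistant values lay above the wild type ones by less than the wild type samples differed from each other. The log2 fold change was 0.03 (SE 0.07; limma, adjusted p = 0.746), and it was -0.06 with median-of-ratios scaling and -0.08 with quantile normalization. MAX overlaps FNTB and CHURC1-FNTB on the opposite strand in GENCODE 29, and their signal also did not pass (limma, adjusted p = 0.773 and 0.125). FNTB passed as higher without wild type replicate 1 (limma, adjusted p = 0.0497), and CHURC1-FNTB as lower with median-of-ratios scaling (0.025).

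Among the MXD-type antagonists, MXI1 and MXD4 fell. MXI1, which competes with MYC for MAX and brings in SIN3, read 13.45 and 11.57 CPM in resistant samples, against 24.07 and 22.52 CPM in wild type samples, and the groups lay far apart. Its level was 1.86 times higher in wild type (log2 fold change -0.85, SE 0.11; limma, adjusted p = 0.00032). With 491 reads in resistant and 848 in wild type cells, counting error alone gives a ratio of wild type to resistant between 1.65 and 2.07 (exact 95% interval). MXI1 passed in 13 of 13 alternative settings.

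MXD4, an antagonist typical of resting and differentiating cells, read 23.03 and 11.18 CPM in resistant samples, against 32.79 and 33.21 CPM in wild type samples. Both resistant samples lay below both wild type samples, but the gap between the resistant samples was wider than that from resistant replicate 1 to either wild type sample. It fell by 0.99 on the log2 scale (SE 0.26; limma, adjusted p = 0.011). The resistant samples held 488 and 199 reads of MXD4. Leaving out resistant replicate 1 gave a log2 fold change of -1.48, and leaving out resistant replicate 2 gave -0.50. The call ended under limma's robust trend (adjusted p = 0.113) and when either wild type sample was left out (limma, adjusted p = 0.0517 without the first and 0.055 without the second).

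MXD3, known in mouse for expression in S phase of dividing cells, read 18.31 and 20 CPM in resistant samples, against 17.11 and 15.97 CPM in wild type samples. The groups did not overlap, with the resistant samples above, but the difference did not pass (log2 fold change 0.20, SE 0.10; limma, adjusted p = 0.121). MXD3 overlaps PRELID1 on the opposite strand in GENCODE 29, and PRELID1 was higher in resistant cells (log2 fold change 0.39, limma, adjusted p = 0.002). A share of PRELID1 reads in MXD3 cannot be told apart without known strand use. RAB24 overlaps MXD3 on the same strand and did not pass (log2 fold change 0.23, limma, adjusted p = 0.114), and strand use would not separate its reads. MXD1, the founding MXD gene, which is not among the 9, read 4.67 and 3.26 CPM in resistant samples, against 9.54 and 10.74 CPM in wild type samples. It was 2.56 times higher in wild type (log2 fold change -1.18, SE 0.16; limma, adjusted p = 0.00045) and passed in 13 of 13 alternatives. MXD1 overlaps SNRNP27 on the same strand, which was lower too (log2 fold change -0.28; limma, adjusted p = 0.00828) but not without either resistant replicate (0.0853 and 0.0952). The relatives MYCN, MYCL and MLXIPL were not among the listed genes.

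MNT and MGA did not pass. MNT, the broadly expressed antagonist that keeps pace with MYC in dividing cells, read 9.06 and 9.61 CPM in resistant samples and 9.16 and 7.54 CPM in wild type samples, with overlapping groups (log2 fold change 0.15, SE 0.13; limma, adjusted p = 0.348). MGA, the scaffold of PRC1.6, read 11.52 and 11.68 CPM in resistant samples and 9.54 and 12.67 CPM in wild type samples, and the resistant values lay between the wild type ones (log2 fold change 0.07, SE 0.14; limma, adjusted p = 0.693).

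In the Mondo arm, MLX rose and MLXIP did not pass. MLX read 63.1 and 64.32 CPM in resistant samples, against 44.69 and 42.4 CPM in wild type samples, and the replicates of each group lay close together. Its mean was 63.7 ± 0.863 CPM in resistant cells and 43.5 ± 1.62 CPM in wild type cells (SD, n = 2 each), a ratio of 1.46 and a log2 fold change of 0.54 (SE 0.07; limma, adjusted p = 0.00045). The call held in 13 of 13 alternatives. MLX overlaps PSMC3IP, a recombination factor, on the opposite strand in GENCODE 29. PSMC3IP read 50.87 and 48.65 CPM in resistant samples, against 32.24 and 28.08 CPM in wild type samples, a log2 fold change of 0.71 (limma, adjusted p = 0.00032), and how far reads of the pair were separated was not tested. MLXIP, the subunit that senses phosphorylated glucose, read 5.8 and 5.9 CPM in resistant samples and 7.29 and 4.9 CPM in wild type samples (log2 fold change -0.03, SE 0.17; limma, adjusted p = 0.894). Its wild type samples lay on either side of the resistant ones.

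**Figure D2:**
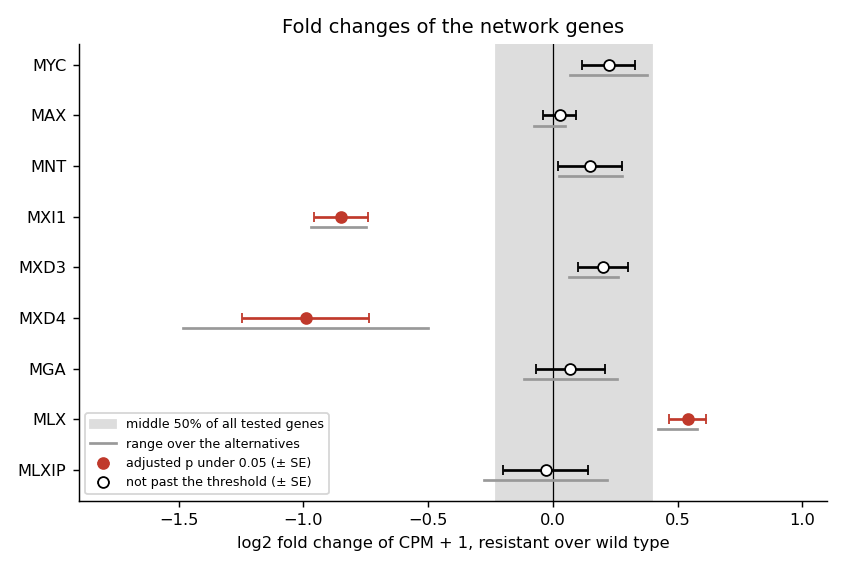
Points show the log2 fold change (CPM + 1, resistant over wild type) of each network gene with its standard error, filled red where the adjusted p is under 0.05, and grey lines below them the range over the alternative settings. The grey band holds the middle 50% of all tested genes, and MLX, MXI1 and MXD4 lie outside it.

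Ratios inside a sample do not depend on the scaling of its column. CAGE counts transcript ends, so the values were not divided by length, and each ratio is compared between samples only. MYC over MAX was 0.787 and 0.973 in resistant samples and 0.793 and 0.734 in wild type samples, which overlapped (exact permutation test, two-sided p = 0.667). MYC over the sum of MXI1, MXD3, MXD4, MNT and MGA was 0.925 and 1.35 in resistant samples, against 0.754 and 0.686 in wild type samples. The summed antagonists themselves read 75.4 and 64.0 CPM in resistant samples, against 92.7 and 91.9 CPM in wild type samples. Both resistant samples thus lay above both wild type samples in MYC per antagonist, and with 2 against 2 samples the exact permutation test cannot go below p = 0.333, which is the value obtained. The log2 ratio of the group means was 0.66, and it was 0.91 when resistant replicate 1 was left out and 0.36 when resistant replicate 2 was. With MXD1 in the sum, the ratio was 0.871 and 1.28 in resistant samples and 0.684 and 0.614 in wild type samples. Of the genes summed, MXI1, MXD4 and MXD1 had lower means in resistant cells, and MXD3, MNT and MGA did not. These ratios are therefore not separate from those falls, and the resistant samples of MXD4 read 23.03 and 11.18 CPM. MLXIP over MLX was 0.0919 and 0.0917 in resistant samples, against 0.163 and 0.116 in wild type samples (exact permutation test, two-sided p = 0.333, the smallest possible). Its log2 ratio of -0.60 was -0.33 without wild type replicate 1.

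**Figure D3:**
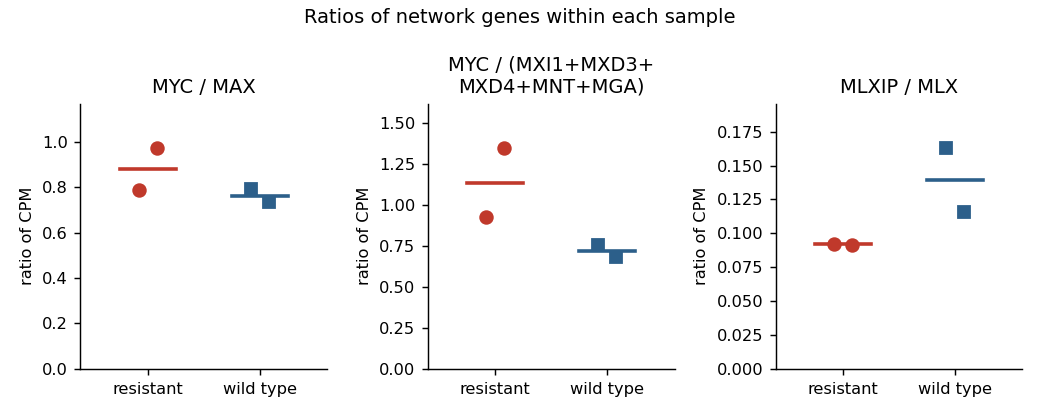
Panels plot ratios of CPM values within each sample, resistant (red circles) left of wild type (blue squares), with bars at the group means (n = 2). MYC over MAX overlaps between the groups, while MYC over the summed antagonists is higher and MLXIP over MLX lower in both resistant samples.

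Known targets of MYC, MLXIP and MLX are given as counts, each to be read against the 33.5% of all tested genes that were higher and the 21.6% that were lower. A list of 57 widely used MYC targets (here the biogenesis targets) holds genes of ribosome biogenesis and mitochondria, but also of the cell cycle, DNA replication and transport. Of these, 56 were tested, of which 23 rose (41.1%), 8 fell (14.3%) and 25 did not pass. The median log2 fold change was 0.13, against 0.09 over all tested genes, and 2 fell without either resistant sample in turn. PPRC1, a coactivator of mitochondrial biogenesis, read 68.05 and 67.36 CPM in resistant samples, against 36.74 and 31.33 CPM in wild type samples. UTP20, a small-subunit processome protein, read 36.43 and 38.54 CPM in resistant samples, against 20.01 and 20.15 CPM in wild type samples. AIMP2, a scaffold of the tRNA synthetase complex, rose to a similar degree (log2 fold change 0.89; limma, adjusted p = 2.01e-05). Hexokinase HK2 went the other way, at 15.95 and 15.56 CPM in resistant samples and 35.7 and 38.38 CPM in wild type samples.

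Of 18 classical E-box targets, 8 rose (44.4%), 3 fell (16.7%) and 7 did not pass, with a median of 0.24, where 33.5% of all tested genes were higher and 21.6% lower. The nucleolar protein NCL read 844.25 and 797.61 CPM in resistant samples, against 432.46 and 403.54 CPM in wild type samples, and the RAN exchange factor RCC1 read 533.01 and 511.72 CPM in resistant samples, against 312.92 and 333.44 CPM in wild type samples. CDC25A, the phosphatase that activates cyclin-dependent kinases, rose by a log2 fold change of 1.08 (limma, adjusted p = 0.000106). Lactate dehydrogenase LDHA, which hypoxia also induces, fell by 1.24 on the log2 scale (limma, adjusted p = 1.96e-05), at 1072.76 and 926.2 CPM in resistant samples and 2445.98 and 2283.84 CPM in wild type samples.

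Of 12 genes that MYC is reported to repress, 6 were tested, of which 2 rose (33.3%), 1 fell (16.7%) and 3 did not pass, shares near the 33.5% and 21.6% of all tested genes. With either other scaling 1 rose and 2 fell. The iron storage chain FTH1 read 947.7 and 929.4 CPM in resistant samples, against 478.79 and 464.61 CPM in wild type samples. NDRG1, another gene that hypoxia induces, read 11.09 and 11.35 CPM in resistant samples, against 46.17 and 54.79 CPM in wild type samples. A change in the hypoxia response as a whole was not tested. The cyclin-dependent kinase inhibitor CDKN1A rose by a log2 fold change of 0.29 (limma, adjusted p = 0.0232) but lost its call with median-of-ratios scaling (adjusted p = 0.0518), with quantile normalization (0.0957), without a trend (0.0623) and without either resistant replicate or wild type replicate 2 (between 0.058 and 0.153). GADD45A, a stress gene, did not pass (log2 fold change -0.18; limma, adjusted p = 0.0756), and it passed as lower with median-of-ratios scaling (adjusted p = 0.0154) and quantile normalization (0.00844).

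Of 5 targets of MLXIP and MLX, 0 rose and 1 fell. TXNIP, the thioredoxin-binding inhibitor of glucose uptake and the best known Mondo target, read 0.05 and 0.06 CPM in resistant samples, against 3.29 and 3.58 CPM in wild type samples (limma, adjusted p = 1.96e-05). These values are 1 and 1 reads in the resistant samples and 60 and 65 reads in the wild type samples, so that the wild type level was 67.0 times higher with an exact 95% interval of 18.15 to 559. ARRDC4, the arrestin-domain gene most often regulated along with TXNIP, read 1.46 and 1.8 CPM in resistant samples and 1.92 and 1.16 CPM in wild type samples (limma, adjusted p = 0.791). ARRDC3, KLF10 and PFKFB3 did not pass either (limma, adjusted p between 0.489 and 0.528), and KLF10 passed as higher without wild type replicate 1 (limma, adjusted p = 0.0278). ARRDC4 was added to the named genes after its values were seen.

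**Figure D4:**
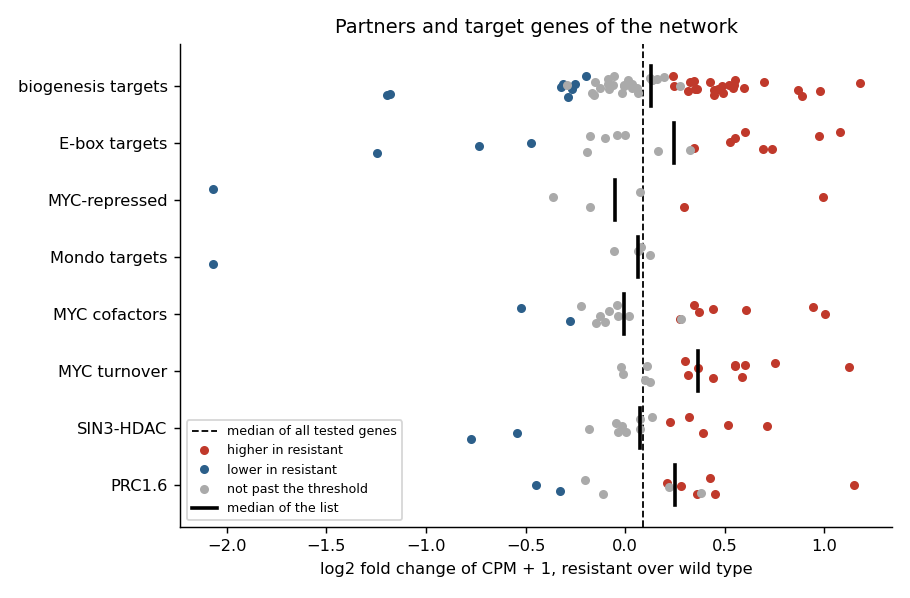
Each point is a tested gene of a list at its log2 fold change (CPM + 1, resistant over wild type), red where higher, blue where lower and grey where not past the threshold, with a black bar at the median of the list and a dashed line at the median of all tested genes. TXNIP is the point farthest left among the Mondo targets, and no gene of the MYC turnover list is lower past the threshold.

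Genes that act with MYC or on MYC protein were also read from the fit. Of 15 regulators of MYC turnover, 10 rose (66.7%), 0 fell and 5 did not pass, against 33.5% higher and 21.6% lower among all tested genes. The median log2 fold change was 0.36. Without resistant replicate 1, 5 rose, and with quantile normalization 7. They act in opposite directions on MYC protein. Among genes that promote its breakdown, STUB1, the ubiquitin ligase CHIP, read 80.28 and 79.21 CPM in resistant samples, against 36.9 and 35.19 CPM in wild type samples, and FBXW7, the F-box protein that recognises phosphorylated MYC, read 5.24 and 4.66 CPM in resistant samples, against 2.91 and 2.92 CPM in wild type samples. FBXW7 was named after its values were seen, and its call was lost without resistant replicate 1 (limma, adjusted p = 0.0545). Among genes that stabilise it, the nucleolar deubiquitinase USP36 rose by a log2 fold change of 0.55 (limma, adjusted p = 0.00141), the mitotic kinase PLK1 by 0.55 (adjusted p = 0.000295) and SET, an inhibitor of phosphatase PP2A, by 0.58 (adjusted p = 0.000392). PLK1 is also among the biogenesis targets.

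Of 18 cofactors of MYC, 7 rose (38.9%), 2 fell (11.1%) and 9 did not pass, with a median of -0.01, where 33.5% of all tested genes were higher and 21.6% lower. Without resistant replicate 1 or 2, 4 or 3 rose and 1 fell, and 4 fell without wild type replicate 1. With median-of-ratios scaling 4 fell, and with quantile normalization 5. WDR5, which anchors MYC to chromatin, read 72.11 and 74.66 CPM in resistant samples, against 37.18 and 35.13 CPM in wild type samples. The acetyltransferase KAT2A and the scaffold TRRAP, which MYC recruits together, rose by log2 fold changes of 0.94 and 0.61 (limma, adjusted p = 0.000354 and 0.00045). EP400, the ATPase of the TIP60 complex, fell by 0.52 (limma, adjusted p = 0.00251).

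Of 15 SIN3-HDAC corepressor genes, through which MXD proteins and MNT act, 5 rose (33.3%), 2 fell (13.3%) and 8 did not pass, with a median of 0.08. Among all tested genes 33.5% were higher and 21.6% lower. The number that rose was 3 under both other scalings, without a trend, without resistant replicate 2 and without wild type replicate 2, and 2 without resistant replicate 1. The scaffold SIN3B read 45.68 and 45.22 CPM in resistant samples, against 29.17 and 25.72 CPM in wild type samples, and SAP18 rose by a log2 fold change of 0.51 (limma, adjusted p = 0.000784). The histone-binding chaperone RBBP7 and the subunit SAP30 fell by 0.78 and 0.54 (limma, adjusted p = 8.56e-05 and 0.000474). Of 12 other PRC1.6 genes, which work with MGA and MAX, 6 rose and 2 fell, with a median of 0.25, against 33.5% higher and 21.6% lower among all tested genes. With median-of-ratios scaling 4 rose and 3 fell, and with quantile normalization 4 rose and 4 fell. Without resistant replicate 1, 2 rose and 0 fell, without resistant replicate 2, 3 rose and 1 fell, and without wild type replicate 1, 0 fell. EHMT2, the G9a methyltransferase, read 30.16 and 29.44 CPM in resistant samples, against 12.34 and 13.44 CPM in wild type samples. CBX3, PCGF6 and E2F6 rose by log2 fold changes of 0.36, 0.45 and 0.43 (limma, adjusted p between 0.00236 and 0.00478), and each lost its call without 1 resistant replicate (adjusted p between 0.0507 and 0.0694). CBX3 is also among the biogenesis targets. Of 13 germline genes that PRC1.6 silences, 1 was tested, TDRKH, which fell (log2 fold change -0.90; limma, adjusted p = 0.000195).

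The place of the genes in the genome was compared with their change, using the order of the tested genes in GENCODE 29. MYC lies on the long arm of chromosome 8, and of its 10 nearest tested neighbours 5 were lower, 1 was higher and 4 did not pass, with a median log2 fold change of -0.24, where 21.6% of all tested genes were lower and 33.5% higher. The higher one, ASAP1, lost its call under both other scalings, without a trend and without either resistant replicate (limma, adjusted p between 0.0528 and 0.16). The lower ones included SQLE, a sterol synthesis enzyme, WASHC5 and TRIB1, all on the side towards the centromere (log2 fold changes -1.13, -0.50 and -0.88; limma, adjusted p = 1.05e-05, 0.000705 and 0.00173). PVT1, the noncoding gene next to MYC, read 15.01 and 16.85 CPM in resistant samples and 15.3 and 17.02 CPM in wild type samples (limma, adjusted p = 0.891). Of the 10 neighbours of MLX 6 were higher and 0 lower, with a median of 0.30, against 33.5% higher and 21.6% lower among all tested genes, and 2 of the 6 share all their values. Of the 10 neighbours of MXI1 6 were higher and 1 lower (median 0.36), opposite to MXI1 itself. The 10 neighbours of MXD4 had 3 higher and 3 lower. Those of MXD1, which itself fell, had 0 higher and 5 lower (median -0.18). Neighbouring genes are not independent of each other, and these counts were not recomputed under the alternatives.

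**Figure D5:**
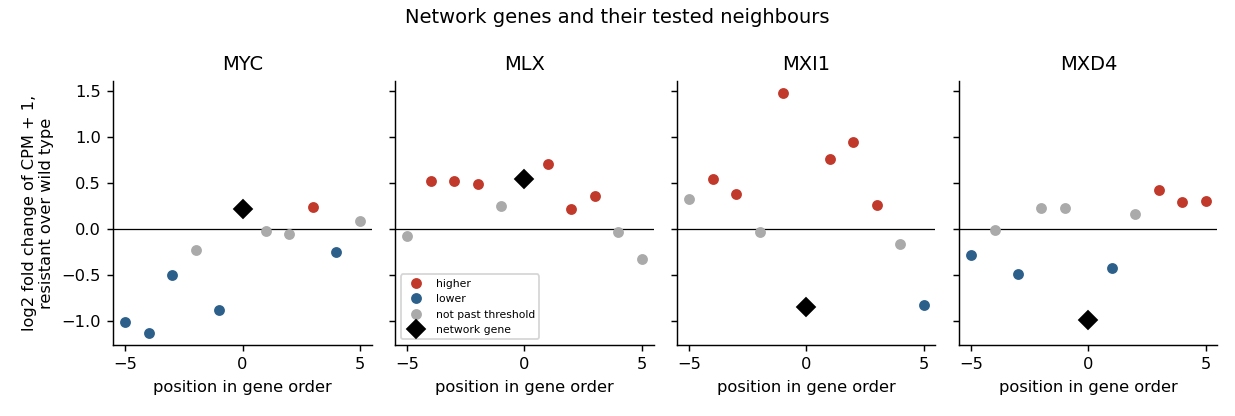
Each panel plots the log2 fold change (CPM + 1, resistant over wild type) of a network gene (black diamond) and of its 5 nearest tested neighbours on each side in gene order, red where higher, blue where lower and grey where not past the threshold. MXI1 lies below most of its neighbours, and the neighbours of MYC on its left side are mostly lower.

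By the distance of log2(CPM + 1) values over the 4 samples, the genes nearest to MYC in level and pattern were ADI1, MYBL2 and C5orf24, at Euclidean distances of 0.179, 0.205 and 0.21. MYBL2 (B-MYB), a cell cycle transcription factor, read 80.47 and 85.61 CPM in resistant samples and 70.4 and 64.04 CPM in wild type samples. With 4 samples such likeness describes levels more than patterns.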

How the data were processed

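CAGE libraries of 2 cisplatin resistant and 2 wild type UM-UC-3 samples were grouped by title. The authors deposited CPM values, rounded, with 1 column per sample, each scaled to its own total over the listed genes. The submitters' processing notes list BWA 0.5.9, hg19 and mm9, with no role stated. How reads were counted, on which annotation and strand, and how genes were chosen for listing is not stated in these sources. The low values of resistant replicate 1 lay within 0.1 of a step of a whole multiple in 94.4% of cases (100.0% in the other columns). Rounding is coarsest against the step in that column, so this share cannot tell whether its values were whole reads. The deposited values are CPM, and no count model was run. Reads derived from the steps serve for exact intervals, which hold counting error and nothing else. A gene was tested when its mean over all 4 samples reached 1 CPM (12587 of 13743 genes). Groups were compared on log2(CPM + 1), a scale that understates low genes, by limma 3.58.1 (R 4.3.3; linear model, moderated with a mean trend), and p-values were adjusted by Benjamini-Hochberg across these genes. The procedure was also run on simulated counts in which few genes changed. Since many genes pass in these data, that run does not gauge the error rate here. The network genes and the lists were chosen with earlier results of these data known. The genes named were the 9 network genes, MXD1, PVT1, up to 4 genes per list with the smallest adjusted p, and the 3 genes nearest to MYC. Others are named as overlapping or neighbouring genes, as markers, or where the text says so. Gene order and overlaps came from GENCODE 29, which held 99.3% of the tested identifiers, and promoters from RefSeq (GRCh38.p14), matched by symbol. Alternatives were other pseudocounts (0.5 and 0.1), filters, scalings and variance settings, a replicate block, and leaving out each sample.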

Additional observations from a re-analysis of the deposited data

How the results depend on the processing

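Of 69 genes named with a test and followed over 13 alternatives (12 for TXNIP, FBXW7 and ARRDC4, which lie under the higher filter), 50 stayed on their side of the threshold, and 0 called values changed sign. Of the network genes, 1 rose, but 2 rose without resistant replicate 1, where MYC passed (leave-one-out range 1 to 2). Those that fell numbered 2, but 1 under the robust trend and 1 without either wild type replicate, where MXD4 did not pass (leave-one-out range 1 to 2). Among all tested genes 33.5% were higher and 21.6% lower. Over the 12 lists of pathway genes and MYC neighbours, 64 of the 170 genes with a value rose and 28 fell. Leaving out 1 sample at a time gave 36 to 68 and 17 to 32, and quantile normalization 50 and 40. Over all tested genes, 2556 to 4316 were higher and 1636 to 2787 lower with 1 sample left out, the low ends of all these without a resistant sample. The log2 ratio between the groups moved between 0.04 and 0.35 for MYC over MAX, between 0.36 and 0.91 for MYC over the 5 antagonists, between 0.42 and 0.98 with MXD1 among them, and between -0.83 and -0.33 for MLXIP over MLX. When 1 sample is left out, the lone sample of its group is assumed to vary like the other group. Samples with the same replicate number did not deviate together (correlation -0.08). With 2 samples per group this rests on 1 contrast, so whether such samples shared a batch was not tested. With the replicate block 1 network gene rose and 2 fell, and over all tested genes 4320 were higher and 2778 lower. Median-of-ratios scaling moved the median of all genes by -0.08 and quantile normalization by -0.07. The cause of these changes was not tested. Genes of few reads such as MLXIP, with 228 reads in resistant and 222 in wild type cells, allow only wide ratios (0.793 to 1.16, exact 95% interval).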

Other observations

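Other E-box factors and regulators of the MYC promoter are given as counts, beside 33.5% higher and 21.6% lower among all tested genes. Of 10 other bHLH factors that bind E-boxes, 9 were tested, of which 2 rose, 4 fell and 3 did not pass. With either other scaling 1 rose and 4 fell. Without resistant replicate 1, 0 rose and 2 fell, without resistant replicate 2, 1 rose and 2 fell, and without wild type replicate 2, 1 rose. The sterol regulator SREBF1 read 37.42 and 40.34 CPM in resistant samples, against 63.06 and 57.82 CPM in wild type samples (limma, adjusted p = 0.00038), and SREBF2 fell by 0.36 on the log2 scale (limma, adjusted p = 0.00936). The circadian partners moved apart: ARNTL (BMAL1) read 4.67 and 5.28 CPM in resistant samples, against 13.1 and 8.59 CPM in wild type samples (limma, adjusted p = 0.00253), and CLOCK read 14.39 and 14.94 CPM in resistant samples, against 11.35 and 10.3 CPM in wild type samples (limma, adjusted p = 0.012). SREBF2 and CLOCK lost their calls without either resistant replicate (adjusted p between 0.0705 and 0.0977).

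Of 8 proteins that act on the MYC promoter, 2 rose and 1 fell, and 1 rose without either resistant replicate in turn. The insulator protein CTCF, which binds upstream of MYC, read 52.01 and 60.0 CPM in resistant samples, against 31.09 and 34.25 CPM in wild type samples (limma, adjusted p = 0.000293). CNBP, which binds its purine-rich element, rose by a log2 fold change of 0.31 (limma, adjusted p = 0.0049) and lost its call without either resistant replicate (adjusted p = 0.114 and 0.0532). PUF60, a repressor of MYC that lies on the same chromosome arm, fell by 0.48 (limma, adjusted p = 0.00044).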
